A study of Mus musculus with 4 samples.

Results

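Tac2 GABAergic nuclei were 598 of the 38868 nuclei kept over 4 libraries of the mouse posterior substantia innominata, with 135 and 151 in male 1 and male 2 and 68 and 244 in female 1 and female 2. They were chosen by raw counts of unique molecular identifiers (UMIs, 1 per captured RNA molecule). A member had 500 to 8000 genes, under 5% of its UMIs from mitochondrially encoded genes, at least 2 Tac2 UMIs, at least 1 UMI of Gad1 or Gad2, at most 2 of Sst and at most 2 of Moxd1, none of Slc17a6 or Slc17a7, and at least 2 of the neuronal genes Syt1, Snap25 and Rbfox3 together. They were set against the 16060 other GABAergic nuclei, which had at least 2 UMIs of Gad1 and Gad2 together (4835, 4656, 3521 and 3048, and values below keep this order of libraries).

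The study profiled nuclei of this part of the basal forebrain by droplet sequencing to quantify how its neurons differ between the sexes. All 4 libraries came from wild-type mice aged 8 weeks without a stated treatment, 2 from males and 2 from females. Neither separate animals nor pooling is stated for the libraries of a sex. The p-values between the sexes in Tac2 nuclei therefore reflect the spread between libraries alone, which may be technical. Those of the other gene comparisons come from fits with the library as a block. They reflect how far the difference within a library varied from library to library, which may be technical as well. The libraries held 158132452, 144035342, 53098268 and 53679351 UMIs, and both male libraries were thus deeper than both female libraries. No barcode of a Tac2 nucleus was shared between libraries.

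Tac2 encodes the precursor of neurokinin B in the mouse, a peptide of the tachykinin family that acts mainly on the receptor encoded by Tacr3. Tac1 encodes the relatives substance P and neurokinin A, which act mainly on the receptors encoded by Tacr1 and Tacr2. Neurokinin B neurons are known from the arcuate nucleus, where they take part in the control of reproduction, and from the central amygdala and the bed nucleus of the stria terminalis, which adjoin the substantia innominata.

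The coding sequences of the mature peptides are shown because they define what Tac2 shares with Tac1, the tachykinin gene that was low in these nuclei. Both genes end each peptide on a common tail, whose 5 codons are in capitals. The sequences are from GENCODE vM21 (GRCm38, plus strand), 5′ to 3′.
Tac2, neurokinin B: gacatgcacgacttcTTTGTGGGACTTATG
Tac1, substance P: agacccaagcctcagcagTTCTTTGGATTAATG
Tac1, neurokinin A: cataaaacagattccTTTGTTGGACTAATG
The neurokinin B codons lie in exon 5 of 7 of Tac2 (chr10:127729116-127729145) and are in both of its coding transcripts. The substance P codons lie in exon 3 of 6 of Tac1 (chr6:7556732-7556764) and those of neurokinin A in exon 5 of 6 (chr6:7559101-7559130). Over the 15 bases of the tail, neurokinin B shared 13 bases with neurokinin A, where all 5 residues were equal, and 10 with substance P, where 4 residues were equal.

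The genes of the rule are described without a test. Tac2 reached 170, 164, 277 and 290 CPM (counts divided by the TMM-scaled total and multiplied by 1e6) in the summed members and 5.49, 5.67, 5.87 and 13.7 in the summed other GABAergic nuclei. Tac2 stayed low per nucleus, with a median of 2 UMIs in male 1 and both females and 3 in male 2, and a highest count of 12, 13, 7 and 14. Gad2, which makes GABA, lay at 325, 295, 303 and 236 CPM in members and at 264, 267, 328 and 275 in the others, so that neither group was higher in all libraries. Slc32a1, the vesicular GABA transporter gene, which the rule did not use, lay at 45.0, 38.7, 18.1 and 47.5 CPM in members and 39.7, 42.4, 15.2 and 52.3 in the others (log2 difference -0.03 ± 0.09 SE, edgeR's quasi-likelihood test, Benjamini-Hochberg adjusted p = 0.92).

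A threshold of 2 UMIs is low and free RNA can add UMIs, so the same count was taken in nuclei that should lack Tac2. At least 2 Tac2 UMIs were found in 3.30%, 3.66%, 1.93% and 7.86% of GABAergic nuclei, with median depths of 13332, 12926, 5952.5 and 6454.5 UMIs. In oligodendrocyte nuclei they were found in 0.319%, 0%, 0% and 0.717%, at median depths of 2068, 2008, 1667 and 1507 UMIs. The deeper glutamatergic nuclei had them in 0%, 0%, 0% and 2.11%, with 12712, 12097.5, 5856 and 6045 UMIs. These shares are from unequal depths. With each nucleus thinned to 1000 UMIs, at least 1 Tac2 UMI was left in 1.27%, 1.23%, 1.26% and 3.93% of GABAergic nuclei, in 2.23%, 2.11%, 0.749% and 3.94% of oligodendrocyte nuclei, in 1.95%, 1.34%, 0.647% and 6.05% of astrocyte nuclei and in 0.293%, 0.281%, 0% and 1.41% of glutamatergic nuclei. At matched depth the GABAergic share lay at or below both glial shares in both males and female 2, above both in female 1, and above the glutamatergic share in every library. The summed Tac2 level went the same way against oligodendrocyte nuclei, at 10.2, 11.7, 12.3 and 43.1 CPM over the plain total in GABAergic nuclei and at 17.5, 16.4, 6.13 and 49.3 in oligodendrocyte nuclei. The thinned glial shares rest on few nuclei with a Tac2 UMI, from 2 astrocyte nuclei in female 1 to 22 oligodendrocyte nuclei in female 2. How much of the Tac2 in GABAergic nuclei was free RNA was not tested. The rule can include nuclei whose Tac2 UMIs are free RNA. Just inside the threshold, with exactly 2 Tac2 UMIs, were 72, 58, 44 and 131 nuclei, and just outside, with 1, were 296, 300, 179 and 442.

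Since free RNA can add to them, the shares of nuclei that met the rule are not shares of nuclei expressing Tac2. Members made up 2.72% of GABAergic nuclei in male 1 and 3.14% in male 2, with exact Clopper-Pearson 95% intervals of 2.28 to 3.21 and 2.67 to 3.67 (counting error only). They made up 1.90% in female 1 (interval 1.47 to 2.40) and 7.41% in female 2 (interval 6.54 to 8.36). Members needed only 1 UMI of Gad1 or Gad2, whereas the other GABAergic nuclei needed 2. Just 1 was held by 4, 8, 15 and 53 members, which count in these shares and were most in female 2. Shares with the same limit for both groups were not computed. Female 2 lay above the other 3 libraries and female 1 below both males, so the females spanned the male values. The mean share was 2.93% ± 0.30 in males and 4.65% ± 3.9 in females (SD, n = 2 each), a male minus female difference of -1.73 points (two-sided exact permutation test, p = 1, where the smallest possible p was 0.33). Without female 2 the difference was 1.03 points, and over all nuclei kept it was 0.18 points. With each nucleus thinned to 3000 UMIs the shares were 0.991%, 0.456%, 0.861% and 3.55%, and female 2 was again the highest. The share of mitochondrial UMIs in members was also highest in female 2, with a median of 0.169% against 0.0073%, 0.0094% and 0.0275% in the others, and its part in the share of Tac2 nuclei was not tested.

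**Figure D1:**
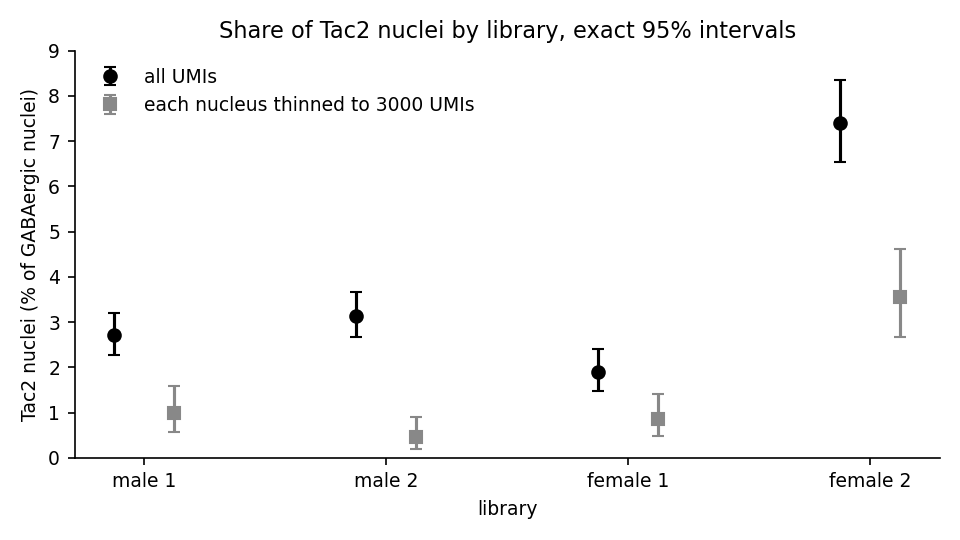
Share of Tac2 nuclei among GABAergic nuclei (y axis, %) in each library (x axis), with exact 95% intervals, for all UMIs (circles) and after thinning each nucleus to 3000 UMIs (squares). Female 2, at 7.41%, lies above the other 3 libraries, which range from 1.90% to 3.14%. Members needed 1 UMI of Gad1 or Gad2 and the other GABAergic nuclei 2.

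To find which genes set these nuclei apart, UMIs were summed per library over members and over other GABAergic nuclei, and the 8 sums were compared with the library as a block. Of 16072 genes tested with edgeR's quasi-likelihood test, 813 (5.06%) were higher and 867 (5.39%) were lower in members at an adjusted p of 0.05, and 3284 had an unadjusted p under 0.05. Of the 1680 called genes, 1459 moved the same way in all 4 libraries, and in 607 the 4 members' values did not overlap the 4 others. Over all 16072 genes tested, called or not, the values did not overlap in 948. Members were deeper than the others in each library, with median UMIs of 16475, 17989, 7572 and 8129 against 13294, 12804, 6063 and 6366. After thinning to 3000 UMIs per nucleus 676 genes were called, of which 626 were among the 1680. Without the library as a block 95 were called, all among the 1680, and with females alone 651. The others were not held to the limits on Sst, Moxd1, Slc17a6 and Slc17a7, nor to the minimum of Syt1, Snap25 and Rbfox3. Genes of nuclei outside those limits can thus be lower in members because of the rule. Against nuclei with no Tac2 UMI that met the rest of the rule, 1853 genes were called, 1596 of them among the 1680.

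Il1rapl2, the marker named with Tac2 for these cells, was higher in members of every library. It encodes a relative of the synaptic organizer Il1rapl1 and lies on chromosome X (chrX:137570608-138846946). Its level was 1149, 1167, 1607 and 1142 CPM in members and 428, 407, 536 and 403 in the others, and the groups did not overlap (log2 difference 1.51 ± 0.05 SE, edgeR adjusted p = 7.32e-28). A UMI of Il1rapl2 was found in 59.3%, 60.3%, 70.6% and 66.4% of members, in 37.2%, 37.4%, 40.2% and 37.3% of the others, and in 5.89%, 4.84%, 17.0% and 11.2% of the shallower oligodendrocyte nuclei. With each nucleus thinned to 3000 UMIs it was found in 46.7%, 52.3%, 63.6% and 60.1% of members and in 24.0%, 25.4%, 30.9% and 28.8% of the others. A nucleus without a UMI may still express the gene, and the oligodendrocyte shares were not matched for depth.

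Cadps2 showed the same separation. Its product primes dense-core vesicles, which release neuropeptides, for fusion. It stood at 964, 1002, 861 and 933 CPM in members and at 304, 306, 306 and 255 in the others (log2 1.69 ± 0.05 SE, edgeR adjusted p = 7.32e-28). All members' values were above all others, as they also were for Syt2, a fast calcium sensor of transmitter release, at 42.5, 43.4, 41.2 and 41.1 CPM against 12.1, 11.6, 18.2 and 16.4 (log2 1.63 ± 0.12).

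Several of the named genes encode transcription factors. Ebf1 (chr11:44617317-45008091), a factor of striatal neurons, lay at 748, 712, 620 and 586 CPM against 179, 166, 316 and 212 (log2 1.70 ± 0.09 SE, edgeR adjusted p = 6.15e-20). Zfp521, whose product binds the Ebf1 protein, was also higher, at 260, 235, 208 and 173 CPM against 64.8, 61.9, 98.6 and 64.2 (log2 1.69 ± 0.08). Npas1, a factor of pallidal neurons, stood at 36.3, 28.3, 23.1 and 41.8 CPM against 6.30, 6.68, 14.8 and 14.9 (log2 1.85 ± 0.15). For each of these 3 factors the members' values lay above all values of the others.

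Vipr2 (chr12:116077726-116146261), which encodes a receptor for vasoactive intestinal peptide, was at 56.9, 76.1, 64.3 and 18.4 CPM in members and at 7.87, 7.07, 4.12 and 3.25 in the others (log2 3.15 ± 0.14 SE, edgeR adjusted p = 2.36e-21). Female 2 was the lowest member library and still lay above all the others. Vipr2 overlaps Gm20658 on the opposite strand, and no source used here states whether counting used the strand. Dnah5, a dynein heavy chain gene, was also lowest in members of female 2 and did not overlap the others, at 82.1, 72.7, 69.3 and 35.0 CPM against 23.4, 22.9, 11.5 and 11.5 (log2 1.79 ± 0.10).

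The remaining genes named for a higher level were Glra1, a glycine receptor subunit gene (log2 1.67 ± 0.09), the long noncoding RNA Lncenc1 (1.70 ± 0.13), Cachd1 (1.60 ± 0.07), the kinase gene Stk32b (1.41 ± 0.10), the phospholipase gene Plch1 (1.37 ± 0.11) and Tox, a nuclear factor gene (1.37 ± 0.05). Glra1 was highest in members of female 2, at 90.7 CPM, against 44.5, 47.5 and 44.5 in the other 3 libraries. Each of these 6 passed the test at edgeR adjusted p of 4.91e-13 or less.

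The genes named for a lower level were led by Col23a1, a collagen gene, at 5.78, 9.42, 4.95 and 8.85 CPM in members and 33.8, 37.6, 35.6 and 25.2 in the others (log2 -2.04 ± 0.15 SE, edgeR adjusted p = 3.24e-14). Sox6, a factor of neurons from the medial ganglionic eminence, lay at 68.5, 73.4, 117 and 38.2 CPM against 276, 258, 293 and 189 (log2 -1.92 ± 0.08). Adarb2, a marker of caudal ganglionic eminence interneurons, lay at 471, 789, 670 and 436 CPM against 1770, 1733, 1529 and 1349 (log2 -1.48 ± 0.07). None of the 3 genes overlapped between members and others. Kcnmb2, a potassium channel subunit gene, was lower by 2.01 ± 0.11 in log2, Nos1, which makes nitric oxide, by 1.67 ± 0.14 and Foxp2 by 1.64 ± 0.08. Sema3e, Myo5b, Chst9 and Tmem163 had log2 differences of -1.58 ± 0.13, -1.57 ± 0.15, -1.49 ± 0.14 and -1.44 ± 0.15.

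**Figure D2:**
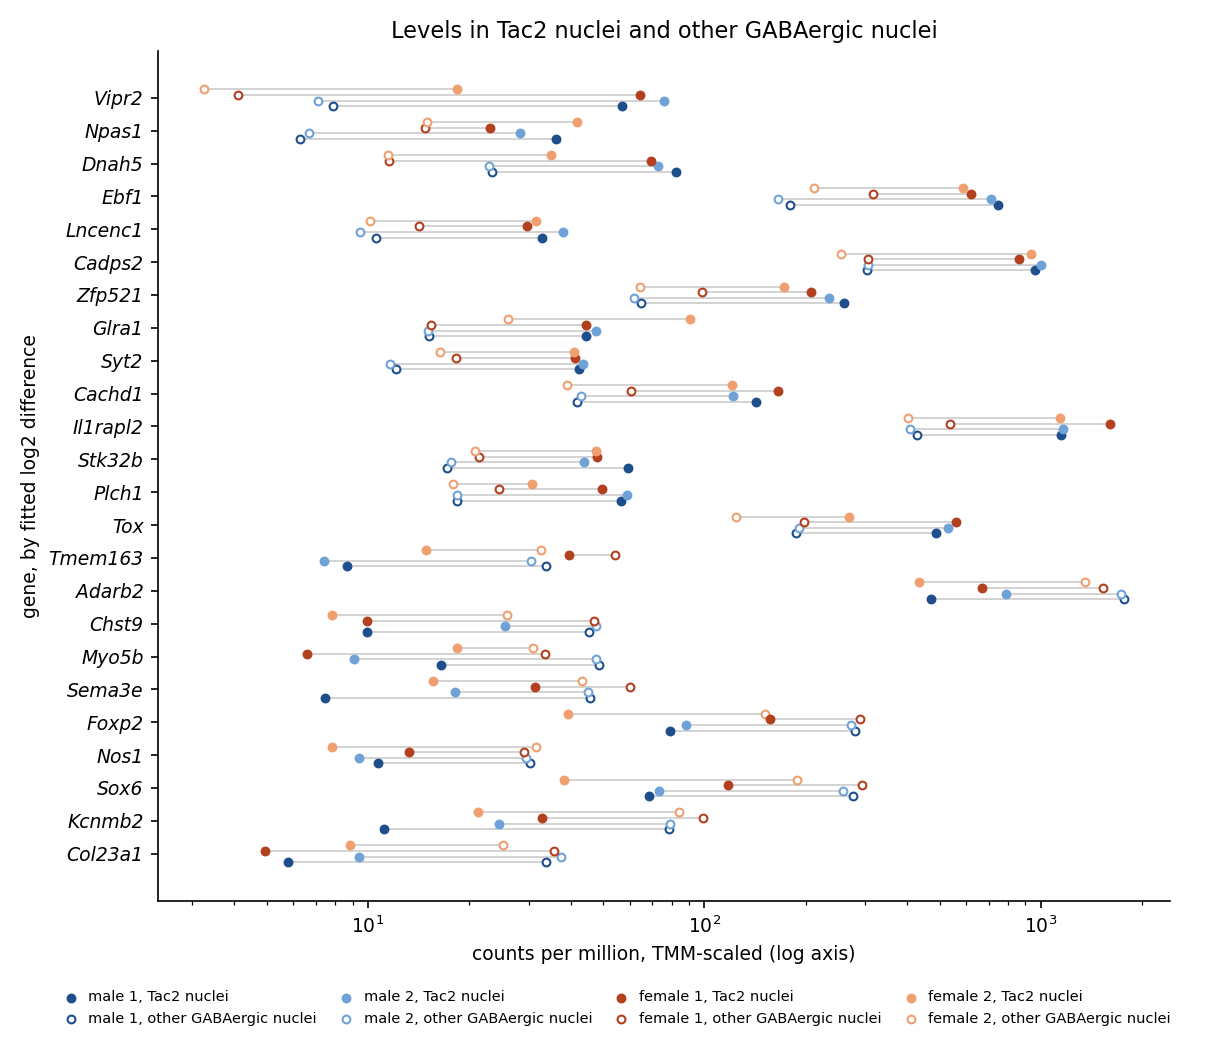
CPM (x axis, log scale) of 24 of the 25 genes the naming rule took (y axis), for the members (filled circles) and other GABAergic nuclei (open circles) of each library, in 1 color per library. For Il1rapl2, Cadps2, Ebf1 and Vipr2 the filled circles of all 4 libraries lie to the right of all open ones, and for Sox6 and Adarb2 to the left.

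Within the tachykinin system, 3 of 5 genes were tested, of which Tacr1 was higher, Tac1 lower and Tacr3 not called. Tac1 lay at 3.30, 7.07, 9.90 and 5.31 CPM in members and at 10.1, 10.7, 10.5 and 18.6 in the others, lower in each library and without overlap (log2 -1.18 ± 0.21 SE, edgeR adjusted p = 6.04e-05). Tacr1, the substance P receptor gene, lay at 63.9, 81.1, 62.7 and 37.9 CPM against 48.9, 48.7, 37.0 and 30.2 (log2 0.54 ± 0.08, edgeR adjusted p = 3.82e-06), with female 2 inside the range of the others. Tacr3, the receptor gene for neurokinin B, lay at 37.5, 16.5, 6.60 and 29.0 CPM against 19.8, 20.1, 15.3 and 22.6 (log2 0.31 ± 0.14, edgeR adjusted p = 0.204), higher in male 1 and female 2 and lower in male 2 and female 1. The median log2 difference of the 3 was 0.31, against -0.007 over all genes tested.

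Of 20 neuropeptide genes tested, none was higher and 2, Tac1 and Pmch, were lower, with a median log2 of -0.11. Over all genes tested 5.06% were higher and 5.39% lower, so these small counts are not read as a result about the list. The same shares over all genes apply to the counts of the other gene lists. The call on Pmch was lost without female 2. Penk, the enkephalin gene, lay at 61.9, 87.8, 36.3 and 112 CPM in members and at 81.3, 91.1, 32.6 and 72.5 in the others, with no call (log2 0.10 ± 0.09 SE, edgeR adjusted p = 0.645).

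Among 44 neuropeptide and hormone receptor genes tested, 11 were higher and 7 lower, with a median log2 of -0.07. Npy1r, a neuropeptide Y receptor gene, lay at 12.8, 17.2, 21.4 and 20.2 CPM against 5.59, 6.10, 8.58 and 7.09 (log2 1.40 ± 0.16 SE, edgeR adjusted p = 5.72e-09), and Prlr, the prolactin receptor gene, at 143, 163, 102 and 116 against 89.0, 84.2, 69.3 and 65.2 (log2 0.80 ± 0.06, edgeR adjusted p = 1.83e-13). Both were higher in members without overlap. Grpr and Lepr, the receptor genes for gastrin-releasing peptide and leptin, were higher at low levels, with log2 differences of 1.65 ± 0.26 and 1.46 ± 0.25. The calls on Npbwr1 and Brs3, both under 4 CPM in members, were lost on leaving out single libraries, any of 3 for Npbwr1 and either of 2 for Brs3. Rxfp2, a relaxin family receptor gene, was lower, at 1.65, 7.40, 3.30 and 5.31 CPM against 15, 15.9, 14.2 and 23.7 (log2 -1.89 ± 0.21).

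Of 6 gonadal steroid receptor, aromatase and related genes, 1 was higher, 2 lower and 3 not called (median log2 -0.25). The estrogen receptor gene Esr1 lay at 56.1, 43.1, 14.8 and 50.6 CPM against 27.1, 26.0, 26.4 and 25.8 (log2 0.81 ± 0.11 SE, edgeR adjusted p = 2.73e-07), and only female 1 went the other way. The aromatase gene Cyp19a1 was lower, at 2.48, 2.36, 0 and 0.708 CPM against 7.80, 7.55, 1.5 and 3.76 (log2 -1.82 ± 0.33), and so was the estrogen-responsive gene Greb1 (log2 -1.29 ± 0.20). Pgr, Esr2 and Esrrg had log2 differences of 0.24, -0.61 and 0.11 with edgeR adjusted p of 0.0699, 0.121 and 0.137.

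Of 15 patterning genes of the medial ganglionic eminence and preoptic area, 11 were lower and 2 higher in members, with a median log2 of -0.99. Lhx8 and Lhx6, which specify neurons of that eminence, were both near 0 in members. Lhx8 lay at 1.24, 2.02, 1.65 and 1.06 CPM against 11.6, 12, 13.6 and 18.1 (log2 -3.23 ± 0.28 SE, edgeR adjusted p = 1.79e-12) and Lhx6 at 2.89, 1.35, 0 and 1.77 against 15.9, 14.5, 10.4 and 13.3 (log2 -2.97 ± 0.26, edgeR adjusted p = 4.38e-12). Neither overlapped between members and others. The 2 higher genes were Npas1 and Npas3, a relative of Npas1 (log2 0.28). Without female 2, 7 were lower, and with DESeq2 7. The others included Sst and Moxd1 nuclei, which the rule keeps out of members, so lower levels here can follow in part from the rule.

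Of 29 patterning genes of the lateral and caudal eminences, 6 were higher and 11 lower (median log2 -0.22). After Ebf1, the higher ones were Zfhx3 (log2 1.00 ± 0.05 SE), Tshz2 (0.70 ± 0.05), Zfhx4 (0.57 ± 0.06), Isl1 (0.48 ± 0.12) and Nr2f1 (0.36 ± 0.10). Zfhx3, a large homeodomain factor gene, lay at 1393, 1223, 1260 and 982 CPM in members and at 619, 590, 664 and 546 in the others, and a UMI of it was found in 97.0%, 98.7%, 95.6% and 93.0% of members. The lower ones included Sp9, Foxp2, Six3 and Pax6, with log2 differences of -1.88, -1.64, -1.58 and -1.43. The 11 hypothalamic and other patterning genes tested gave 5 lower and none higher (median log2 -0.84).

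Of 38 potassium channel genes, 14 were higher and 4 lower (median log2 0.06), and with no filter on low counts 9 and 9. Kcns3, a modulatory subunit gene, lay at 15.3, 10.1, 16.5 and 8.85 CPM in members and at 3.86, 3.08, 3.65 and 3.62 in the others (log2 1.75 ± 0.21 SE, edgeR adjusted p = 1.24e-08). Kcnt2, a sodium-activated channel gene, lay at 338, 345, 332 and 246 CPM against 215, 229, 211 and 164 (log2 0.62 ± 0.05). In both genes the members lay above all the others.

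The list of Il1rapl and receptor phosphatase synaptic organizers had 5 of 24 genes higher and 2 lower (median log2 -0.10). After Il1rapl2, these were Ptprd, the phosphatase that binds Il1rapl1 (log2 0.42 ± 0.04 SE), Il1rap (0.40 ± 0.06), Ntrk3 (0.29 ± 0.05) and Lrfn5 (0.19 ± 0.04). Il1rapl1 itself lay at 3259, 3313, 2939 and 2508 CPM in members and 3318, 3296, 3087 and 2426 in the others (log2 -0.01 ± 0.04, edgeR adjusted p = 0.941). Axon guidance genes were called lower in 18 of 36 and higher in 6 (median log2 -0.24), with Sema3e lowest and Robo2 highest (log2 0.55 ± 0.05).

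None of 16 immediate early genes, which neurons switch on after activity, was called higher and 10 were lower, with a median log2 of -0.96. Egr1 lay at 8.25, 7.07, 3.30 and 2.48 CPM in members and 17.2, 19.6, 10.1 and 5.21 in the others (log2 -1.27 ± 0.19 SE, edgeR adjusted p = 2.68e-06), lower in each library although the groups overlapped. Junb lay at 8.25, 12.1, 4.95 and 6.37 CPM against 19.7, 21.1, 6.39 and 10.3 (log2 -0.89 ± 0.17). After thinning 3 were lower, with DESeq2 6, and with females alone none. Of 12 striatal projection neuron genes, 7 were lower and none higher (median log2 -0.30).

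Markers of other cells were read in the same sums. The summed oligodendrocyte markers lay at 290, 317, 515 and 526 CPM in members and at 407, 422, 779 and 501 in the others, with 4 of 7 called lower and none higher (1 lower without male 1, and 1 without female 1). The astrocyte markers summed to 316, 294, 337 and 446 CPM against 270, 272, 467 and 497, with 3 of 7 lower (1 without female 1) and 1 higher, and none of 6 microglia markers was called. At least 3 UMIs of glial genes were held by 52.6%, 50.3%, 60.3% and 58.6% of members and by 50.3%, 49.6%, 55.1% and 52.8% of the others. Without those nuclei 1124 genes were called, 955 of them among the 1680. The acetylcholine genes Chat and Slc5a7 were at 0.412, 0, 26.4 and 1.77 CPM and at 0.412, 0.337, 4.95 and 1.77 CPM in members, highest in female 1. Both were called lower in members than in the others (log2 -2.29 ± 0.39 SE for Chat and -3.21 ± 0.34 for Slc5a7). Without female 1 the log2 difference of Chat was -4.11. Of 3 cholinergic genes tested, the remaining 1 had a log2 difference above 0 and was not called. The 4 genes of that list summed to 28.9, 28.6, 67.6 and 45.0 CPM in members and to 41.0, 43.7, 43.9 and 70.5 in the others. The sum was thus higher in members of female 1 and lower in those of the other libraries.

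The members were not uniform in Ebf1 and Vipr2, a split chosen after the values were seen and given as a description. Of the members of each library, 49.6%, 49.7%, 51.5% and 53.3% held at least 2 Ebf1 UMIs and no Vipr2 UMI. Another 19.3%, 26.5%, 13.2% and 4.1% held a Vipr2 UMI, and 31.1%, 23.8%, 35.3% and 42.6% were in neither group. With or without Vipr2, at least 2 Ebf1 UMIs were held by 65.2%, 74.2%, 63.2% and 56.6% of members. Both this share and that of Vipr2 were lowest in female 2. Most members with Vipr2 also held at least 2 Ebf1 UMIs, with 21 of 26, 37 of 40, 8 of 9 and 8 of 10.

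The share of members in these splits is given without a test. Among all GABAergic nuclei with Vipr2, 11.3%, 18.6%, 14.3% and 19.2% were Tac2 nuclei. Among nuclei with Ebf1 and no Vipr2 the share was 6.98%, 8.38%, 4.29% and 17.8%, and among the rest it was 1.11%, 0.97%, 0.89% and 4.15%. Female 2 was highest in each of these splits, by least for Vipr2. The rest were shallower, with medians of 12478, 12029, 5635 and 6027 UMIs, against 17298.5, 17490, 7226 and 7872 for nuclei with Ebf1 and no Vipr2.

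Il1rapl2 was lower in members with Vipr2 than in members with Ebf1 and no Vipr2, at 0, 183, 155 and 455 CPM over the plain total against 1219, 1590, 2141 and 1481. Of members with Vipr2, 0 of 26 held an Il1rapl2 UMI in male 1, which allows a share of nuclei with a UMI of up to 11.5% and sets no limit on expression, and 10 of 40, 4 of 9 and 2 of 10 did in the other libraries. Members with Ebf1 and no Vipr2 held one in 76.1%, 74.7%, 77.1% and 72.3%, and those with neither in 69%, 69.4%, 70.8% and 63.5%. In the other GABAergic nuclei with Ebf1 and no Vipr2 the share was 41.5%, 46.7%, 45.2% and 42.6%. Other GABAergic nuclei with Vipr2 held one in 37.6%, 34.3%, 35.2% and 28.6%, at 278, 319, 230 and 369 CPM. Share and level were both above those of members with Vipr2 in the males, and went opposite ways in each female.

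**Figure D3:**
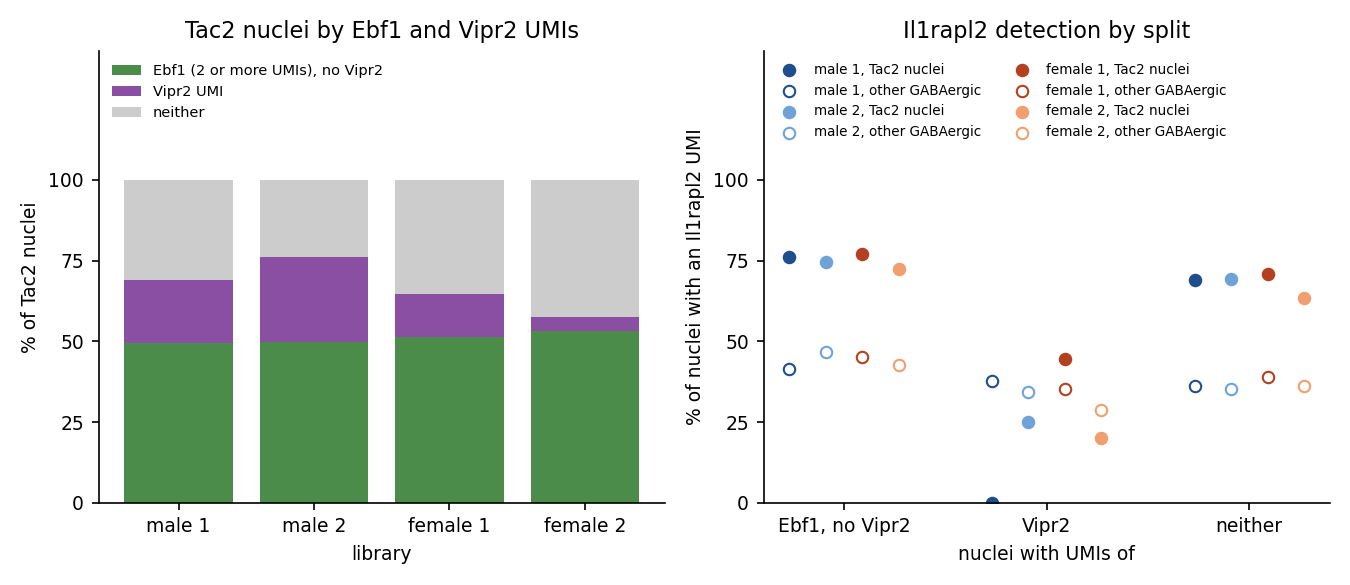
Left, the Tac2 nuclei of each library (x axis) split by UMIs of Ebf1 and Vipr2 (y axis, % of Tac2 nuclei). Right, the share of nuclei with an Il1rapl2 UMI (y axis, %) in each split (x axis), for Tac2 nuclei (filled) and other GABAergic nuclei (open), 1 color per library; Tac2 nuclei with Vipr2 lie at 0% in male 1 and at 44.4% or less in all libraries.

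Clusters with Ebf1 or Vipr2 among their leading genes were found when the GABAergic nuclei of each library were clustered without the genes of the rule, and cluster values are given with no test, as CPM over the plain total of UMIs. In each library 1 such cluster, called the Ebf1 cluster here, held 31.1%, 41.7%, 35.3% and 32.8% of members, and the Vipr2 cluster held 14.1%, 21.2%, 11.8% and 4.51%. The remaining 54.8%, 37.1%, 52.9% and 62.7% of members lay in other clusters, which are not described by their genes here. Among these, a cluster of male 1 held 20 members of 67 nuclei (29.9%), a cluster of female 1 held 10 of 36 (27.8%) and a cluster of female 2 held 34 of 82 (41.5%). Each had the highest share of any cluster in its library. Every library was clustered on its own, and these clusters were not matched between libraries by their genes. Members were 10.1%, 15%, 9.02% and 39.8% of the nuclei in the Ebf1 cluster, so most nuclei of that cluster were not members.

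Il1rapl2 and Esr1 were higher in members of the Ebf1 cluster than in those of the Vipr2 cluster in each library. Il1rapl2 lay at 1622, 2042, 2685 and 2332 CPM in members of the Ebf1 cluster, at 0, 120, 200 and 30.8 in those of the Vipr2 cluster and at 1001, 666, 1398 and 883 in those of the other clusters. Esr1 lay at 45.7, 49.4, 41.3 and 47.0 CPM in the Ebf1 cluster, at 0, 7.98, 0 and 0 in the Vipr2 cluster and at 67.2, 50.5, 5.55 and 64.2 in the other clusters. Il1rapl2 was thus highest in the Ebf1 cluster of each library, whereas Esr1 was so only in female 1. Variable genes of these same nuclei formed the clusters, and Il1rapl2 was among the leading genes of the Ebf1 cluster in female 2. The differences between clusters are therefore a description and no separate support for them. The Vipr2 cluster held only 19, 32, 8 and 11 members, so a level of 0 there does not show that a gene was absent.

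Members of the Vipr2 cluster carried another set of genes. Meis2, a factor of lateral ganglionic eminence neurons, lay at 1610, 1450, 1730 and 1175 CPM there, against 76.6, 65.1, 112 and 160 in members of the Ebf1 cluster. Drd3, a dopamine receptor gene, lay at 89.2, 55.9, 66.5 and 135 CPM against 0, 4.70, 5.90 and 5.37, and Nts, the neurotensin gene, at 136, 52.7, 106 and 80.0 against 4.94, 1.57, 5.90 and 10.8. All 3 were higher in the Vipr2 cluster in each library. The clusters were formed on variable genes of the same nuclei, and Drd3 was among the leading genes of the Vipr2 cluster in each library. These differences are therefore a description and no separate support for the clusters. Tac2 itself lay at 202, 145, 293 and 166 CPM in members of the Vipr2 cluster and at 185, 187, 330.5 and 383 in those of the Ebf1 cluster, with no common order over the libraries.

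Tac2 nuclei were then set beside nuclei with fewer Tac2 UMIs that met the rest of the rule, in CPM over the plain total. Il1rapl2 lay at 278, 284, 436 and 364 CPM in nuclei with no Tac2 UMI and at 397, 464, 971 and 546 with 1. It lay at 723, 630, 1427 and 940 CPM with 2 and at 1763, 1893, 2025 and 1980 with 4 or more. The level was higher at 1 than at 0 and higher at 2 than at 1 in each library. Sox6 went the other way, at 238, 212, 268 and 187 CPM with none and 75.9, 73.9, 123 and 34.0 with 2. Depth moved with this count: median UMIs were 12102.5, 11533, 5394 and 5346.5 with no Tac2 UMI and 22606, 24375, 14318 and 9421 with 4 or more, and its part was not tested. Female 1 had only 3 nuclei with 4 or more.

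**Figure D4:**
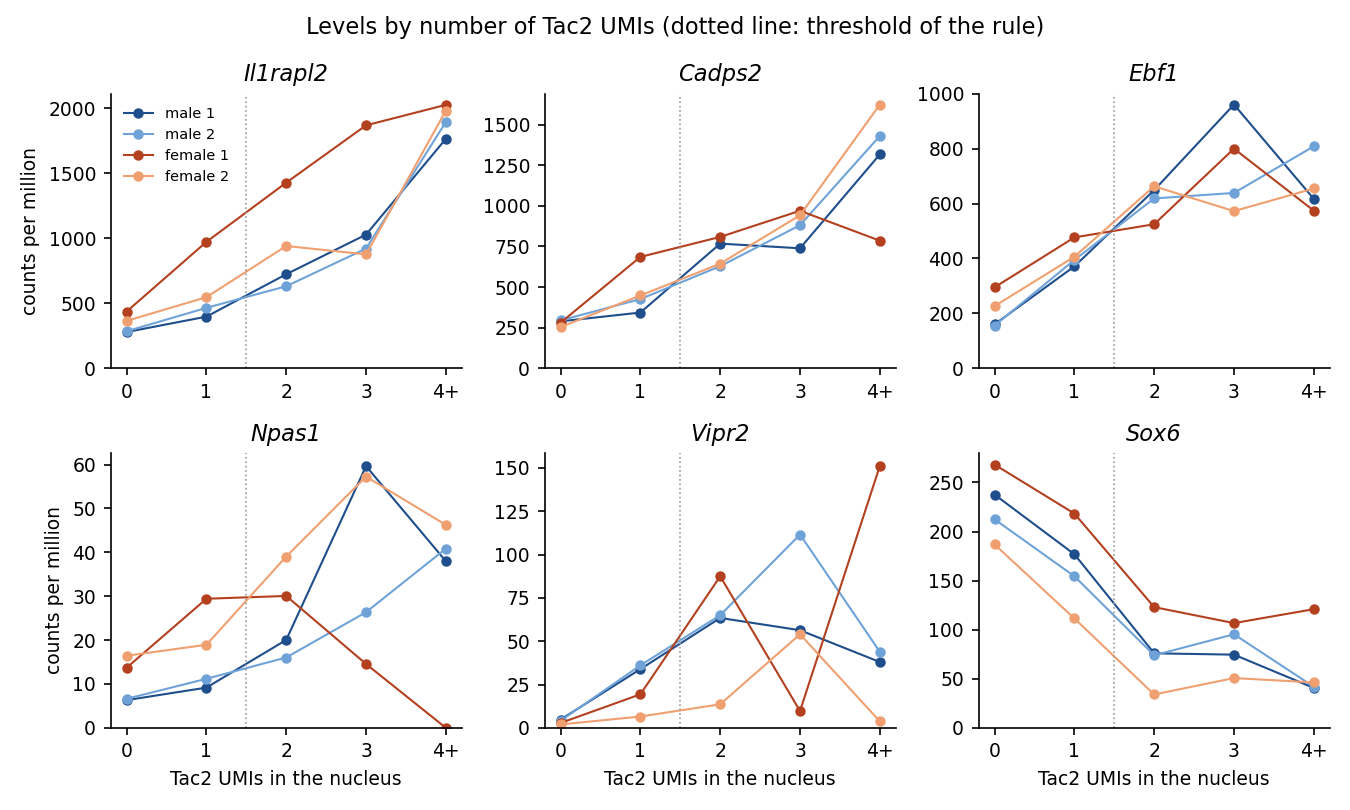
CPM (y axes, from 0) of 6 genes in nuclei with 0, 1, 2, 3 or 4 and more Tac2 UMIs (x axes) that met the rest of the rule, 1 line per library; the dotted line is the threshold of the rule. Il1rapl2 is higher at 4 or more UMIs (1763 to 2025 CPM) than at 0 (278 to 436 CPM) in each library, and Npas1 and Vipr2 follow no common order above the threshold.

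Sst and Moxd1 nuclei are GABAergic types that the rule bounds, so members were also compared with each. Sst nuclei met the same rule but for at least 3 Sst UMIs and at most 1 of Tac2, and numbered 60, 47, 6 and 73. Of 8676 genes, 309 (3.56%) were higher and 300 (3.46%) lower in members by edgeR's quasi-likelihood test, and 391 were called without male 1 and 318 without male 2. Members were higher in Npas1 (log2 3.92 ± 0.44 SE), Stk32b (2.57 ± 0.30), Lncenc1 (2.53 ± 0.35) and Zfp521 (2.53 ± 0.17), and lower in Npy, the neuropeptide Y gene (-4.43 ± 0.36, and -3.66 without female 2), Sox6 (-3.11 ± 0.13), Kcnmb2 (-3.06 ± 0.17), Lypd6 (-2.85 ± 0.31) and Nos1 (-2.71 ± 0.25). Il1rapl2 lay at 1134, 1156, 1683 and 1198 CPM in members and at 296, 551, 965 and 282 in Sst nuclei, without overlap (log2 1.54 ± 0.14, edgeR adjusted p = 9.2e-22). Female 1 contributed only 6 Sst nuclei.

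Moxd1 nuclei, defined likewise by at least 3 Moxd1 UMIs and at most 1 of Tac2, numbered 205, 177, 41 and 40. Of 11707 genes, 910 (7.77%) were higher and 768 (6.56%) lower in members by edgeR's quasi-likelihood test, and 969 were called without male 1 and 935 without male 2. Here Il1rapl2 was lower in members, at 1135, 1148, 1678 and 1141 CPM against 1994, 1510, 3183 and 2923 (log2 -0.87 ± 0.11 SE, edgeR adjusted p = 3.17e-06). It was lower in each library, although members of female 1 overlapped Moxd1 nuclei of male 2. Ebf1 separated the groups, at 739, 701, 648 and 585 CPM in members and 76.4, 36.2, 41.7 and 18.0 in Moxd1 nuclei (log2 3.82 ± 0.16). Vipr2 (log2 5.77 ± 0.28), Npas1 (3.44 ± 0.29) and Dnah5 (2.90 ± 0.20, and 3.61 without male 1) were also higher.

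Lhx6 lay at 2.85, 1.32, 0 and 1.77 CPM in members and at 51.3, 50.0, 94.7 and 69.0 in Moxd1 nuclei (log2 -4.97 ± 0.28, edgeR adjusted p = 2.15e-11). Egfr, the epidermal growth factor receptor gene (-5.12 ± 0.22), Col19a1 (-5.07 ± 0.15), Gna14 (-4.91 ± 0.40, and -6.49 without male 1) and Kcnmb2 (-4.24 ± 0.13) were lower as well. All 5 genes were lower in members of each library without overlap.

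Between males and females, 12 of 12050 genes (0.0996%) were called in Tac2 nuclei by edgeR's quasi-likelihood test, and 1183 had an unadjusted p under 0.05. Higher in males were Uty, Eif2s3y, Kdm5d and Ddx3y, all on the Y chromosome, and Mapkapk5, Arfip1, Gm55122 and 1700087I21Rik. Higher in females were Xist, the RNA that silences 1 X chromosome, B230217J21Rik, Brip1os and Gm11867. Xist lay at 0, 0, 968 and 918 CPM and Uty at 158, 155, 0 and 0.35. Mapkapk5 lay at 45.8, 42.4, 0 and 1.06 CPM in members and at 40.1, 41.1, 1.2 and 0.58 in the other GABAergic nuclei, and for none of the 12 genes was the interaction of sex and group of nuclei called (edgeR adjusted p from 0.251 to 1). With SEs from 0.19 to 6.38 in log2, the largest for Eif2s3y and Xist, this does not show that the sex difference was equal in both groups.

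Software version, gene list and depth differed between the male and female libraries, and sex cannot be told apart from them. Without female 1 the count of called genes was 2787, without female 2 1634, without male 1 21 and without male 2 42. Il1rapl2 in members did not pass (log2 male minus female -0.32 ± 0.22 SE, edgeR adjusted p = 0.70). Neither did Esr1, at a log2 of 0.32 (edgeR adjusted p = 0.867).

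Whether a sex difference in Tac2 nuclei departed from that in other GABAergic nuclei was tested by the interaction, which was called in 93 of 17535 genes (0.53%), 29 positive and 64 negative. An unadjusted p under 0.05 was reached by 1015 genes. Without male 1 the interaction was called in 30 genes, without male 2 in 36 and with DESeq2 in 13. Zfp536, a zinc finger gene, lay at 44.1, 53.5, 198 and 93.1 CPM in members and at 147, 136, 227 and 151 in the others, so that both males had a lower ratio of members to others than both females (interaction log2 -1.02 ± 0.14 SE, edgeR adjusted p = 4.09e-10). Gpc3, a glypican gene, lay at 25.6, 19.9, 56.1 and 34.0 CPM against 58.6, 55.7, 49.8 and 40.2, with the members lower in both males and in female 2 and higher in female 1 (interaction log2 -1.23 ± 0.20, edgeR adjusted p = 2.7e-06).

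**Figure D5:**
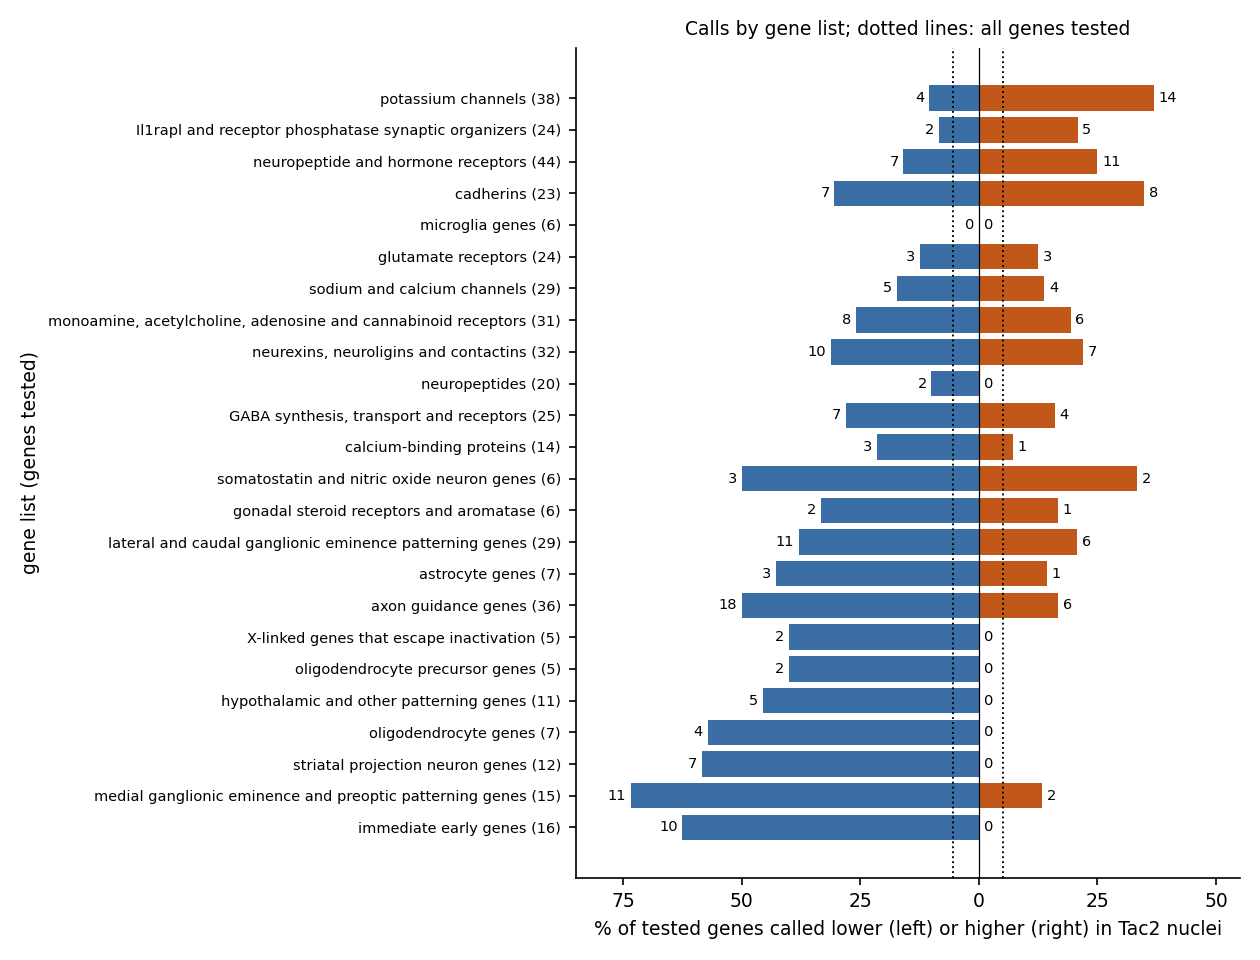
Share of the tested genes of each list (y axis, number tested in brackets) called higher (right) or lower (left) in Tac2 nuclei than in other GABAergic nuclei (x axis, %), with the counts at the bar ends; lists with under 5 tested genes are left out. Dotted lines mark the shares over all genes, 5.06% higher and 5.39% lower; potassium channels have 14 of 38 higher and immediate early genes 10 of 16 lower.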

How the data were processed

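The authors deposited, per library, a sparse matrix of raw UMI counts per gene and barcode. The submitters' processing notes name mm10, Seurat 5 and Cell Ranger 6.0.1, and per the file headers the matrices came from Cell Ranger 9.0.1 (both males), 7.0.0 (female 1) and 7.2.0 (female 2). Counts over the 31899 genes listed in all libraries were summed per library and group of nuclei and tested two-sided with edgeR 4.0.16 (quasi-likelihood, TMM, filterByExpr, Benjamini-Hochberg over all genes, threshold 0.05), a procedure tested on simulated data. Genes of the rule stayed in library sizes and out of tests. Each SE given with an edgeR result was derived as the absolute log2 difference over the square root of the F value of its test. Doublets were kept; 14, 18, 16 and 33 members were among the barcodes with the highest Scrublet scores (0.8% per 1000 barcodes), and their removal was an alternative.

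Clustering (scanpy 1.11.5, 2000 variable genes, 30 components, 15 neighbors, resolution 1) covered all GABAergic nuclei of a library rather than members alone. Named genes were the 15 higher and 10 lower with the largest log2 difference, called, alike in 4 libraries and with a mean of at least 30 CPM, 5 per direction in other comparisons, all tachykinin and steroid list genes, Il1rapl2, and called genes of each list (up to 6 for most); further genes, and the genes of the cluster and UMI descriptions, were chosen after their values were seen. Some results are not reported here: the genes concerned stayed in the fits and in counts over all genes, and were left out of the lists, named genes and figures. Members and lists were chosen with earlier results of these data known. Alternatives were DESeq2 1.42.0, RLE factors, no filter, thinning, stricter rules, and leaving out libraries. Replicate numbers do not pair the libraries.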

Additional observations from a re-analysis of the deposited data

Results flagged for a closer look

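The sex difference in Tac2 nuclei departed from that in other GABAergic nuclei by a test of the interaction (edgeR quasi-likelihood, Benjamini-Hochberg adjustment) for the following genes, given as male minus female in Tac2 nuclei minus the same in the others, in log2. Mertk had 1.22 (adjusted p = 0.00437), Npas1 0.98 (0.00894), Insyn2b 0.95 (0.00327), Pde11a 0.83 (0.0287) and Isl1 0.82 (0.0367). Gpc3 had -1.23 (2.7e-06), Sox5 -1.18 (2.29e-14), Tmem163 -1.12 (0.0345), Lrrtm1 -1.08 (0.00771) and Zfp536 -1.02 (4.09e-10). With each library left out in turn the calls on Gpc3 and Zfp536 were kept, that on Sox5 was lost without female 2 (-0.51), and those on the other 7 were lost without at least 2 of the libraries. Npas1 lay at 36.3, 28.3, 23.1 and 41.8 CPM in members and at 6.30, 6.68, 14.8 and 14.9 in the others, with a male minus female log2 of -0.20 in members and -1.20 in the others. The sexes also differed in depth, gene list and software version, and these cannot be told apart.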

How the results depend on the processing

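Of the 1680 genes that differed between Tac2 nuclei and other GABAergic nuclei, DESeq2 called 1004, all of them among the 1680, thinning left 676, the fit without the library as a block 95 and females alone, added after seeing the data, 651, while leaving out 1 library gave 1266 to 1590. Between males and females in Tac2 nuclei the 12 calls became 562 with no filter on low counts, 161 with DESeq2 and 21 to 2787 without 1 library. With the replicate block 27 genes were called; the replicate numbers only name the libraries, whose deviations correlated at r = 0.042. The interaction count of 93 became 13 with DESeq2 and 30 to 113 without 1 library. Against Sst nuclei 609 became 285 with DESeq2, 187 after thinning and 318 to 562 without 1 library. Against Moxd1 nuclei 1678 became 948, 890 and 935 to 1653 in the same order. The male minus female share of -1.73 points became 0.18 over all nuclei kept and -4.48 to 1.03 without 1 library. These signs turned: Tacr3 (0.31) to -0.02 without male 1 (up to 0.52 without another library); Il1rapl1 from -0.01 to 0.01 without female 1 (down to -0.03 without another), 0.03 with at least 3 Tac2 UMIs and 0.01 without doublets; Drd3 to -0.08 without nuclei with glial UMIs; Pgr to -0.09 after thinning, -0.05 without nuclei with glial UMIs and -0.06 with females alone; Esrrg to 0.00, Chodl to 0.19, St18 to 0.17 and Slc1a2 to -0.05 with females alone; and Il1rapl2 between the sexes from -0.32 to 0.00 without female 1 (-0.54 without female 2). The cause was not tested. Over the named genes and all alternatives 1924 values kept direction and side of the threshold, 349 lost a call, 10 gained one and 13 turned. Among the sums of members depth was lowest in female 1, whose 68 members held 605200 UMIs; the 6 Sst nuclei of female 1 held 39082, and the Moxd1 nuclei of the females 270954 and 311631.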
